A study of Mus musculus with 8 samples.

Results

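The genes described here are the 10 dual-specificity MAP kinase phosphatases of the mouse, taken by their symbols (Dusp1, Dusp2, Dusp4, Dusp5, Dusp6, Dusp7, Dusp8, Dusp9, Dusp10 and Dusp16) from a deposited table of 18262 genes. All 10 symbols were in the table, each once. Wild-type mice in 2 groups had their colon RNA sequenced; the labels name no other agent or allele. DSS + GAA names 4 libraries, of mice given both DSS (dextran sulfate sodium), which damages the lining of the colon and so brings on colitis, and GAA at 20 mg/kg (ganoderic acid A, a lanostane triterpene made by Ganoderma mushrooms). DSS names 4 libraries, of mice given DSS without GAA, so both groups were given DSS and the healthy level is not analysed here. The sources used here do not give strain, age or the timing of treatment, and the treatment labels of the 4 DSS + GAA libraries read 20, 21, 22 and 23 mg/kg, while the titles and the design text give 20 for the group. The replicate numbers are 1, 2, 4 and 5 in each group, and p-values measure the spread between these libraries, since the labels do not say that each is a separate animal.

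MAP kinases (ERK, JNK and p38) are switched on by phosphorylation of a threonine and a tyrosine in their activation loop, and dual-specificity MAP kinase phosphatases remove both phosphates. Many of these phosphatases are transcribed in response to the kinases they switch off, which makes them negative feedback regulators whose messenger RNA is often short-lived. In inflamed tissue they act on the cytokine, growth factor and stress responses of epithelial, stromal and immune cells. They are usually grouped into inducible nuclear enzymes (Dusp1, Dusp2, Dusp4 and Dusp5), cytoplasmic enzymes that prefer ERK (Dusp6, Dusp7 and Dusp9) and enzymes that prefer JNK and p38 (Dusp8, Dusp10 and Dusp16).

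RefSeq (GRCm38.p6) gave a promoter for 8 of the 10 genes, and the 250 bases before the transcription start were searched on both strands. The stretches below belong to the 4 genes that fell (Dusp1, Dusp2, Dusp7 and Dusp16), to Dusp8, which shares the cAMP response element (CRE) with Dusp1, and to Dusp6, the most abundant member in the DSS + GAA group. Each runs 5′ to 3′ on the gene's own strand, and capitals mark every match to the motifs searched. For Dusp1 the bases from 250 to 48 before the start are shown, and for the others the whole window. Exons annotated in GENCODE vM21 cover 47 bases of the Dusp1 window, 171 of the Dusp10 window and all 250 of the Dusp5 window.
Dusp1 (chr17:26508520-26508722, minus strand): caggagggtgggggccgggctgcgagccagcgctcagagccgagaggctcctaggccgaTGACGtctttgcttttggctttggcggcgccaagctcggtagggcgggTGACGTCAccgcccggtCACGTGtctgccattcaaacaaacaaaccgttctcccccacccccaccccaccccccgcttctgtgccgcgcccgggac
Dusp2 (chr2:127335909-127336158, plus strand): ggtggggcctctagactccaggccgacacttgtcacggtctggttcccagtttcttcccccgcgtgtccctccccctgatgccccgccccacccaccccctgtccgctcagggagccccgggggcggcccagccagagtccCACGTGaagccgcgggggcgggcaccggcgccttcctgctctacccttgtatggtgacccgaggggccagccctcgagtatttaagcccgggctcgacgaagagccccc
Dusp7 (chr9:106368382-106368631, plus strand): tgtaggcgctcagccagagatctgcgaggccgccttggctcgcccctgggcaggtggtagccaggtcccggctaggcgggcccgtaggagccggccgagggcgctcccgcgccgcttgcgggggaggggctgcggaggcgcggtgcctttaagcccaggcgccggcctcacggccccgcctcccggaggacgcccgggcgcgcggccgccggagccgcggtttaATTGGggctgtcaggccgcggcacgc
Dusp16 (chr6:134792629-134792878, minus strand): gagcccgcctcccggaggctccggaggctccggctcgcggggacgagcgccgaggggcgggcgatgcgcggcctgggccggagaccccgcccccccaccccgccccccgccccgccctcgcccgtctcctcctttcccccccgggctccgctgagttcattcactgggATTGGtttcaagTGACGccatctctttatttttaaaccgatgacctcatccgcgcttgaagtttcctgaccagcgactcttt
Dusp8 (chr7:142095285-142095534, minus strand): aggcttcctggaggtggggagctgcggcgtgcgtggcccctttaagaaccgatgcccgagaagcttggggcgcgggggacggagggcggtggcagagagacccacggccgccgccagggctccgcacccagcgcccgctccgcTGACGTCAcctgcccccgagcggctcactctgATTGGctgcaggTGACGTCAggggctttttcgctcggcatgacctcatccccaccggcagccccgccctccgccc
Dusp6 (chr10:99262981-99263230, plus strand): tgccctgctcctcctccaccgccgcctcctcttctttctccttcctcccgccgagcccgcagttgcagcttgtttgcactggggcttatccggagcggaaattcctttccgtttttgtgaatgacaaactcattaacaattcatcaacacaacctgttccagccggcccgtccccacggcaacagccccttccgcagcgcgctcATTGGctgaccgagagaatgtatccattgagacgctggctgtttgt
The full CRE (TGACGTCA) was found in 2 of the 8 promoters, at 143 to 136 bases before the start of Dusp1 and at 107 to 100 and 63 to 56 bases before the start of Dusp8. Of 32851 promoters in the table, 1.55% hold it. The shorter motif TGACG, which the full element contains on each strand, was found in 4 promoters, those of Dusp1, Dusp5, Dusp8 and Dusp16, and in 17.8% of all promoters. The CArG box, the motif of serum response factor, was found in 1 promoter, where a pair of them lay next to each other at 82 to 73 and 72 to 63 bases before the start of Dusp5, and in 1.47% of all promoters. The E-box (CACGTG) was found in Dusp1 and Dusp2 (6.02% of all promoters) and the CCAAT box (searched as ATTGG) in 5 promoters, those of Dusp6, Dusp7, Dusp8, Dusp10 and Dusp16 (33.8% of all). Neither the AP-1 site (TGANTCA, 6.75% of all promoters) nor TATAAA (12.4%) was in any of the 8 windows. Of the 2 genes with a CRE, Dusp1 fell and Dusp8 did not pass the test (values below).

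Values are in TPM as the authors deposited them. This unit divides reads by transcript length and gives every library the same total, so levels can be compared between genes, and it keeps no record of sequencing depth, which is unknown for all 8 libraries. Tests used limma on log2(TPM + 1) over the 14217 genes that reached 1 TPM in at least 4 libraries, with an adjusted p (Benjamini-Hochberg over all those genes) under 0.05 as the threshold, and fold changes are on that scale, DSS + GAA over DSS. Of the 10 phosphatase genes 9 were tested, and Dusp9 was below the filter. Among all tested genes the share called lower in DSS + GAA was 28.2% and the share called higher 5.96%. Their median log2 fold change was -0.25, so that a small fall on this scale is common. After trimmed mean scaling, quantile normalization and median centring of the libraries that median was -0.004, 0.02 and 0.05.

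Dusp1 fell steeply in DSS + GAA colon, Dusp2, Dusp7 and Dusp16 fell by smaller amounts, and the other 5 tested phosphatases did not pass the test. The 4 falls among 9 tested members stand beside 28.2% of all tested genes called lower, and 0 members were called higher by limma, at the adjusted threshold or at an unadjusted p under 0.05. The groups did not overlap for the same 4 genes, with all DSS + GAA values below all DSS values, as was so for 27.6% of tested genes. The opposite, all DSS + GAA values above all DSS values, was seen for 0 members and for 5.31% of tested genes. The median log2 fold change of the 9 was -0.49. Of the 4 falls 2 held after trimmed mean scaling (Dusp1 and Dusp7), 2 after median centring (the same pair), 1 after quantile normalization (Dusp1) and 2 without DSS replicate 1 (Dusp1 and Dusp7). In bulk tissue, fewer cells of a type and less RNA per cell cannot be told apart.

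**Figure D1:**
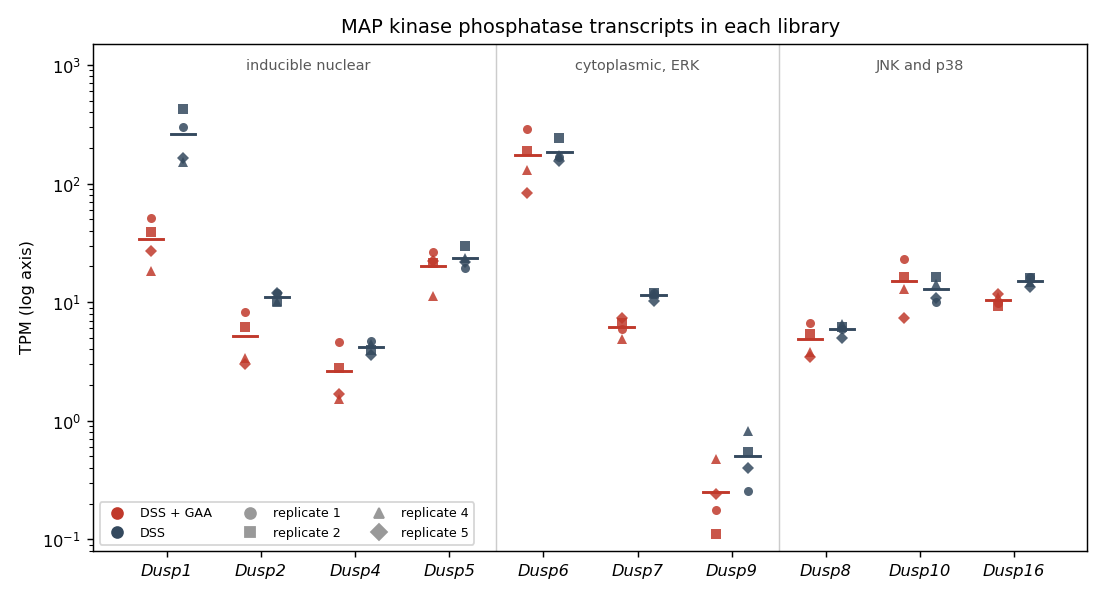
TPM of each phosphatase gene (log axis) in the 4 DSS + GAA libraries (red, left of each pair) and the 4 DSS libraries (dark, right), with the marker shape giving the replicate number and the horizontal line the group mean. Dusp1 lies between 18.2 and 51.6 TPM in DSS + GAA and between 151 and 425 TPM in DSS, while the groups overlap for Dusp4, Dusp5, Dusp6, Dusp8, Dusp9 and Dusp10.

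Dusp1, an immediate early gene whose product acts in the nucleus mainly on p38 and JNK and which in mice restrains cytokine production, was measured at 51.6, 39.3, 18.2 and 27.2 TPM in DSS + GAA replicates 1, 2, 4 and 5, against 300.2, 425, 151 and 163 TPM in DSS replicates 1, 2, 4 and 5. Every DSS + GAA library was thus below every DSS library, and the lowest DSS library was still well above the highest DSS + GAA library. The means were 34.1 ± 14.5 TPM in DSS + GAA and 259.8 ± 129 TPM in DSS (SD, n = 4 each), 7.63-fold lower in DSS + GAA. The log2 fold change was -2.86 ± 0.39 (SE; 95% interval -3.75 to -1.97; limma adjusted p = 0.00510), and only 0.331% of the tested genes had a lower one. Within the groups, the highest library exceeded the lowest by 2.83-fold in DSS + GAA and 2.82-fold in DSS. The two-sided exact permutation p over 70 assignments of the libraries was 0.0286, the smallest it can give. The call held in all alternatives run, with log2 fold changes of -2.59 after trimmed mean scaling, -2.77 after quantile normalization and -2.56 after median centring, and of -3.09 to -2.58 when single libraries were left out. The gene lies on chromosome 17, 26505590 to 26562128, minus strand (GENCODE vM21, GRCm38), where 11 of its 3311 exonic bases are shared with exons of other genes.

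Dusp2, which dephosphorylates ERK and is known from activated immune cells in mice, was measured at 8.30, 6.23, 3.38 and 3.001 TPM in DSS + GAA replicates 1, 2, 4 and 5, against 11.9, 10.2, 9.995 and 11.8 TPM in DSS replicates 1, 2, 4 and 5. The DSS libraries lay close together, and the DSS + GAA libraries were all lower and more spread. Its log2 fold change was -1.03 ± 0.27 (SE; limma adjusted p = 0.0187; exact permutation p = 0.0286). The call was lost after trimmed mean scaling (-0.79, adjusted p = 0.0718 in limma), quantile normalization (-0.60, 0.0849) and median centring (-0.73, 0.0837), and with DSS replicate 1 left out (-0.99, 0.0627). Dusp4, another nuclear phosphatase of this class, was measured at 4.61, 2.79, 1.52 and 1.68 TPM in DSS + GAA replicates 1, 2, 4 and 5, against 4.71, 3.95, 4.42 and 3.57 TPM in DSS replicates 1, 2, 4 and 5. DSS + GAA replicate 1 fell within the DSS range and the other three libraries below it. Dusp4 did not pass (log2 fold change -0.57 ± 0.26 SE, limma adjusted p = 0.11). It passed without DSS + GAA replicate 1 (-0.80, limma adjusted p = 0.00910) and with array quality weights (-0.68, 0.0186). Dusp5, a nuclear phosphatase specific for ERK, was measured at 26.7, 21.2, 11.3 and 22.1 TPM in DSS + GAA and at 19.2, 29.7, 23.4 and 21.7 TPM in DSS replicates 1, 2, 4 and 5. The groups overlapped (log2 fold change -0.24 ± 0.25 SE, 95% interval -0.80 to 0.31, limma adjusted p = 0.473), and the sign turned under the 3 other scalings. Since the labels do not say whether strand was kept, reads of the antisense gene that shares 547 of the 2473 exonic bases of Dusp5 cannot be told apart from its own.

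Dusp6, a cytoplasmic phosphatase of ERK that ERK signalling itself induces, was measured at 288, 188, 130.4 and 82.7 TPM in DSS + GAA replicates 1, 2, 4 and 5, against 167, 241, 173 and 155 TPM in DSS replicates 1, 2, 4 and 5. The DSS + GAA libraries spanned the whole DSS range, with replicate 1 above all DSS libraries and replicates 4 and 5 below all of them. The means were 172 ± 88.2 TPM in DSS + GAA and 184 ± 38.6 TPM in DSS, and the log2 fold change of -0.22 ± 0.34 did not pass (SE; 95% interval -0.98 to 0.54; limma adjusted p = 0.639). The interval includes falls of that size as well as rises, and the sign turned after trimmed mean scaling and median centring and without DSS + GAA replicate 5. Dusp7, a related phosphatase of ERK, was measured at 5.96, 6.67, 4.88 and 7.33 TPM in DSS + GAA replicates 1, 2, 4 and 5, against 11.9, 11.9, 11.6 and 10.2 TPM in DSS replicates 1, 2, 4 and 5. Both groups were tight and clearly apart. Its log2 fold change was -0.79 ± 0.15 (SE; limma adjusted p = 0.00738; exact permutation p = 0.0286), and it missed the threshold under 1 of the alternatives, quantile normalization (-0.40, limma adjusted p = 0.0739). Dusp9, the third ERK-selective enzyme and an X-linked gene, was scarcely present, at 0.177, 0.112, 0.479 and 0.242 TPM in DSS + GAA and at 0.256, 0.55, 0.821 and 0.399 TPM in DSS replicates 1, 2, 4 and 5. These ranges overlapped (exact permutation p = 0.114).

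Dusp16, which binds JNK and p38, was measured at 9.80, 9.29, 11.1 and 11.6 TPM in DSS + GAA replicates 1, 2, 4 and 5, against 16.4, 16.045, 14.7 and 13.3 TPM in DSS replicates 1, 2, 4 and 5. The groups did not overlap, and the gap between the lowest DSS and the highest DSS + GAA library was small. Its log2 fold change of -0.49 ± 0.13 passed (SE; limma adjusted p = 0.0190; exact permutation p = 0.0286), but on the other scalings it was -0.24, -0.16 and -0.19 and did not pass. The call was also lost with DSS + GAA replicate 2 left out (log2 fold change -0.44, limma adjusted p = 0.0661) and with DSS replicate 1 left out (-0.46, 0.0647), at folds close to the one above. Dusp10, a phosphatase of JNK and p38 that limits inflammatory responses in mice, was the sole tested member with a positive log2 fold change, and it did not pass (0.13 ± 0.30 SE, limma adjusted p = 0.756). Its values were 23.1, 16.2, 12.995 and 7.41 TPM in DSS + GAA and 9.95, 16.4, 14.1 and 10.8 TPM in DSS replicates 1, 2, 4 and 5. The sign turned to -0.10 without DSS + GAA replicate 1, the library with the highest value. Dusp8, the remaining JNK and p38 phosphatase, was measured at 6.68, 5.41, 3.83 and 3.48 TPM in DSS + GAA and at 5.98, 6.15, 6.59 and 5.03 TPM in DSS replicates 1, 2, 4 and 5. It did not pass (log2 fold change -0.27 ± 0.20 SE, limma adjusted p = 0.311), and its sign turned after quantile normalization and median centring.

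**Figure D2:**
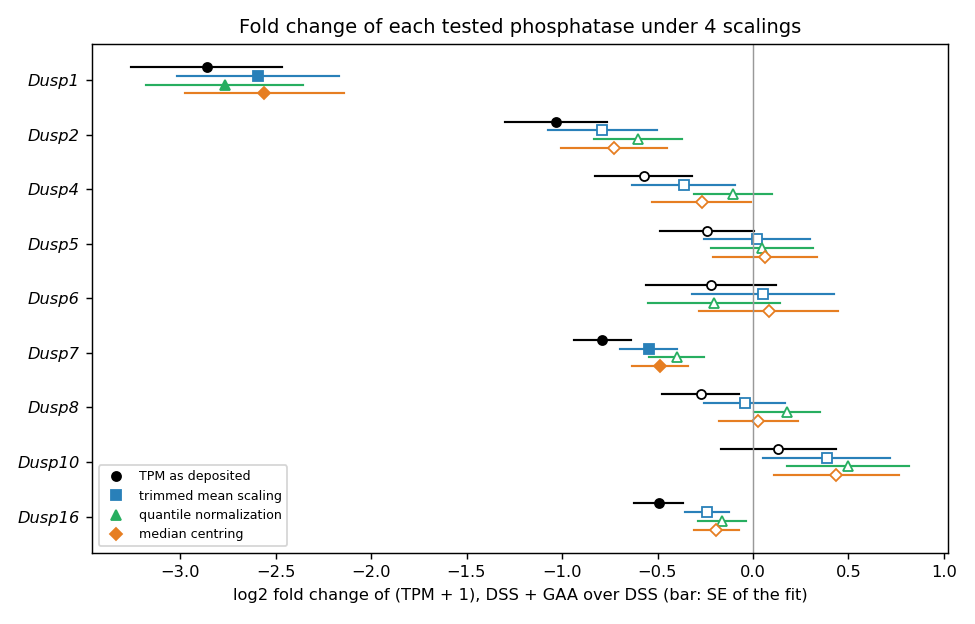
Log2 fold change of (TPM + 1), DSS + GAA over DSS, of the 9 tested phosphatases on TPM as deposited and after 3 other scalings of the libraries, with bars for the SE of the limma fit and filled symbols for an adjusted p under 0.05. Dusp1 stays between -2.86 and -2.56, while Dusp2 and Dusp16 are filled on the deposited scale alone. Dusp5, Dusp6 and Dusp8 lie on both sides of 0.

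The false discovery rates in the authors' deposited table come from a test that the sources used here do not describe. The authors' deposited table called 2 of the 10 phosphatases lower at a false discovery rate under 0.05 and 0 higher, beside 16.2% and 10.3% of all 18262 genes. In the authors' deposited table Dusp1 had a log2 fold change of -2.93 (false discovery rate 2.53e-15) and Dusp2 one of -1.07 (0.0422). For the members, the deposited log2 fold changes match the log2 ratio of mean TPM, DSS + GAA over DSS. That ratio before the log was 0.131 for Dusp1 and 0.475 for Dusp2, so these fold changes are not a separate estimate. Dusp7 (0.140) and Dusp16 (0.618), which fell in limma on the deposited scale, were not called in the authors' deposited table.

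The order of the levels changed at the top. In DSS + GAA, Dusp6 was highest (82.7 to 288 TPM) and its range lay apart from that of Dusp1 (18.2 to 51.6 TPM). Dusp1, Dusp5, Dusp10 and Dusp16 followed with overlapping neighbours, Dusp7 lay apart below Dusp16, and Dusp7, Dusp2, Dusp8 and Dusp4 overlapped in turn. In DSS, Dusp1 and Dusp6 came first with overlapping ranges, Dusp5 (19.2 to 29.7 TPM) stood apart below them, Dusp16, Dusp10, Dusp7 and Dusp2 overlapped in turn, and Dusp8 and Dusp4 each stood apart below. Dusp1 exceeded Dusp6 in 0 of 4 DSS + GAA libraries and in 3 of 4 DSS libraries. Summed over all 10 genes, the phosphatase transcripts came to 425, 295.5, 198 and 167 TPM in DSS + GAA replicates 1, 2, 4 and 5, against 548, 761, 409 and 395 TPM in DSS replicates 1, 2, 4 and 5. DSS + GAA replicate 1 overlapped the DSS range. Without Dusp1 the sums were 237 ± 103 TPM in DSS + GAA and 268 ± 46.2 TPM in DSS (SD, n = 4 each). Dusp1 made up 9.20% to 16.3% of the sum in DSS + GAA and 36.8% to 55.9% in DSS, and Dusp6 49.6% to 67.8% in DSS + GAA and 30.6% to 42.2% in DSS. The sum of the inducible nuclear genes was 34.4 to 91.2 TPM in DSS + GAA and 188 to 469 TPM in DSS, while the sums of the other 2 classes overlapped between the groups. Without Dusp1 the inducible nuclear class overlapped too, at 39.6, 30.3, 16.2 and 26.8 TPM in DSS + GAA replicates 1, 2, 4 and 5, against 35.9, 43.9, 37.8 and 37.1 TPM in DSS replicates 1, 2, 4 and 5.

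**Figure D3:**
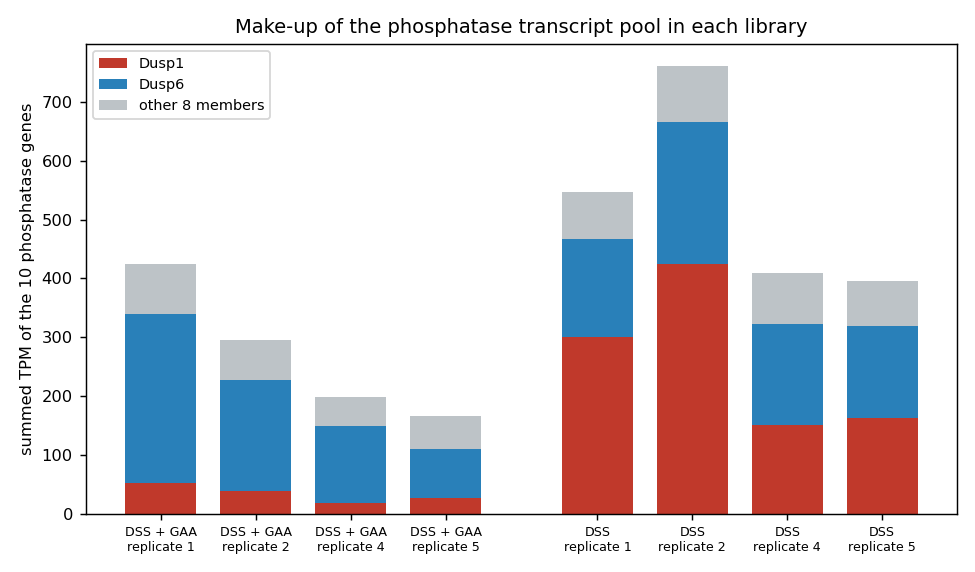
Summed TPM of the 10 phosphatase genes in each library (bars start at 0), split into Dusp1 (red), Dusp6 (blue) and the other 8 members (grey), with DSS + GAA libraries left and DSS libraries right. The Dusp1 part is small in every DSS + GAA library and is at least 36.8% of the bar in every DSS library.

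Ratios of 2 genes within a library, on the log2(TPM + 1) scale, cancel most of a scaling factor common to all genes of that library, though not all of it for low genes, because of the added 1. For all 8 pairs of Dusp1 with another tested phosphatase, the log2 ratio was lower in every DSS + GAA library than in every DSS library. The ratio of Dusp1 to Dusp6 was -2.46, -2.23, -2.77 and -1.57 in DSS + GAA replicates 1, 2, 4 and 5, against 0.84, 0.82, -0.20 and 0.07 in DSS replicates 1, 2, 4 and 5, a difference of -2.64. The differences for the 8 pairs ran from -2.99 (over Dusp10) to -1.83 (over Dusp2). This separation is not particular to the phosphatases, since the ratio of Dusp1 to another tested gene lay lower without overlap for 97.0% of the 14216 other genes, and higher without overlap for 0.0633%. Of the 28 pairs without Dusp1, the groups were apart in 4, all of them ratios of Dusp2, namely over Dusp4, Dusp5, Dusp8 and Dusp10, and lower in DSS + GAA. Over all 14216 other genes, the ratio of Dusp2 lay lower without overlap for 30.1% and higher without overlap for 1.9%. For Dusp7 these shares were 46.9% and 1.01%, and for Dusp16 26.1% and 3.6%. A lower ratio to many other genes is therefore not particular to Dusp2. The ratio of Dusp2 to Dusp10 averaged -1.34 ± 0.25 in DSS + GAA and -0.18 ± 0.43 in DSS (log2 scale, SD, n = 4 each).

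**Figure D4:**
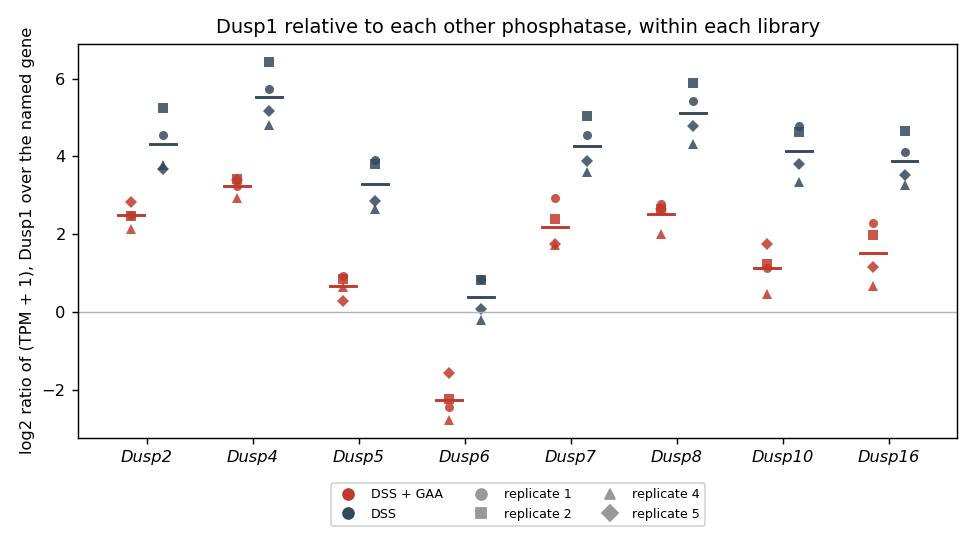
Log2 ratio of (TPM + 1) of Dusp1 over each other tested phosphatase within each library, DSS + GAA in red on the left of each pair and DSS dark on the right, with lines at the group means and marker shapes for the replicate numbers. For each of the 8 genes all DSS + GAA points lie below all DSS points, and for Dusp6 the mean is -2.26 in DSS + GAA and 0.38 in DSS.

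Within the DSS + GAA group, 7 of the 10 phosphatases (Dusp1, Dusp2, Dusp4, Dusp5, Dusp6, Dusp8 and Dusp10) were highest in replicate 1. The same library had the highest summed level for 10 of 11 marker lists of cell types, all but the colon epithelial list. The share of all tested genes that were highest in this library was not counted, so neither count can be set against it. Dusp7 and Dusp16 were highest in replicate 5 and Dusp9 in replicate 4. Cell type markers also moved between the groups. The counts below stand beside 28.2% of all tested genes called lower and 5.96% called higher. The summed TPM of the neutrophil markers was 1428 to 4461 in DSS + GAA and 4942 to 11300 in DSS (13 of 16 tested markers lower). Ly6g, the most abundant of them over all libraries, made up most of that sum in DSS + GAA. It overlapped, at 1137 to 3659 TPM in DSS + GAA and 2441 to 4470 TPM in DSS, and did not pass (log2 fold change -0.62, limma adjusted p = 0.195). The enteric neuron and glia markers summed to 412 to 752.5 TPM in DSS + GAA and 1359 to 2127 TPM in DSS (14 of 16 lower), and the fibroblast markers to 458 to 1620 TPM in DSS + GAA and 1793 to 5021 TPM in DSS (5 of 10 lower). Endothelial markers summed to 48.9 to 189.0 TPM in DSS + GAA and 189.1 to 306 TPM in DSS (10 of 12 lower). T and NK cell markers summed to 171 to 470.5 TPM in DSS + GAA and 90.3 to 122 TPM in DSS (12 of 15 higher), while monocyte and macrophage markers overlapped, at 732 to 2583 TPM in DSS + GAA and 1252 to 1568 TPM in DSS (3 of 14 lower). Colon epithelial markers, which check the labelled tissue, were abundant in both groups, at 21830 to 23680 TPM in DSS + GAA and 14650 to 18960 TPM in DSS (6 of 14 higher and 1 lower), with 0 of the 15 listed genes at 0 in all libraries. Adipocyte markers summed to 36.3 to 134 TPM in DSS + GAA and 335 to 536 TPM in DSS (2 of 3 lower) and red blood cell markers to 9.88 to 63.6 TPM in DSS + GAA and 191.5 to 388 TPM in DSS (5 of 5 lower). B and plasma cell markers overlapped, at 950 to 3303 TPM in DSS + GAA and 1308 to 2107 TPM in DSS (1 of 8 lower), as did smooth muscle markers, at 1673 to 4034 TPM in DSS + GAA and 2114 to 5554 TPM in DSS (1 of 11 lower). The part of these shifts in the phosphatase values was not tested. Several of these counts moved when a single library was left out or the scaling was changed. Leaving out DSS replicate 1 gave 1 endothelial fall, leaving out DSS + GAA replicate 4 or 5 or DSS replicate 4 gave 3, and leaving out DSS + GAA replicate 2 or DSS replicate 2 or 5 gave 4, 5 and 6, while each of the 3 other scalings gave 3. Fibroblast falls came to 1 with DSS replicate 1 left out, to 3 with DSS + GAA replicate 4 or 5 or DSS replicate 2 or 4 left out, and to 8 with DSS + GAA replicate 1 left out, and to 3, 4 and 3 after trimmed mean scaling, quantile normalization and median centring. Macrophage falls came to 8 with DSS + GAA replicate 1 left out and to 1 with DSS + GAA replicate 4 or 5 or any of DSS replicates 1, 2 and 5 left out, and to 1 under each of the 3 other scalings. Epithelial rises came to 3 after quantile normalization and with DSS + GAA replicate 2 or 4 or DSS replicate 1 left out. The single smooth muscle fall was lost with DSS + GAA replicate 4 or 5 or DSS replicate 1 or 4 left out, and after trimmed mean scaling and median centring.

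Genes that ERK signalling induces or uses as feedback mostly fell. Of 26 tested, 17 fell and 9 did not pass, with a median log2 fold change of -1.01 beside -0.25 for all genes and -0.49 for the phosphatases. The share called lower among all tested genes was 28.2%. Ier3, an early response gene, averaged 39.6 ± 10.5 TPM in DSS + GAA and 264 ± 158 TPM in DSS (log2 fold change -2.53, limma adjusted p = 0.00554). The ETS factor gene Etv4 averaged 0.505 ± 0.318 TPM in DSS + GAA and 3.75 ± 1.32 TPM in DSS (-1.64, limma adjusted p = 0.00510), and Spred3, of a family of inhibitors of RAF activation, 2.42 ± 1.40 TPM in DSS + GAA and 9.65 ± 2.49 TPM in DSS (-1.69, limma adjusted p = 0.00585). Trimmed mean scaling and median centring gave 11 falls each, and leaving out DSS replicate 1 gave 9. Dusp6, which belongs to the same feedback system, was set against each of these genes within the libraries. Its log2 ratio was higher in every DSS + GAA library than in every DSS library for 8 of the 26, beside 6.46% of all 14216 other genes, and lower without overlap for 0 of the 26, beside 1.92%. Because 17 of the 26 genes fell, such a ratio tends to rise for any gene with a smaller fall. An excess over the share of all genes is therefore not particular to Dusp6. The members differed in the count of ratios that lay higher without overlap. It was 14 for Dusp10, 13 for Dusp8, 8 for Dusp5 and 7 for Dusp4, beside 12.3%, 12.9%, 7.22% and 8.07% of all other genes. It was 5 for Dusp16, 2 for Dusp7, 1 for Dusp2 and 0 for Dusp1, beside 3.6%, 1.01%, 1.9% and 0.0633%. The ratio lay lower without overlap for 22 of the 26 genes for Dusp1 and for 1 for Dusp2. The shares over all 14216 other genes were 97.0% for Dusp1 and 30.1% for Dusp2. For Dusp7 and Dusp16 the ratio lay lower without overlap for 0 of the 26, beside 46.9% and 26.1%. For Dusp4, Dusp5, Dusp8 and Dusp10 that count was also 0, beside 7.8%, 3.5%, 6.03% and 1.23%. The 8 genes for Dusp6 were Spry1, Spred3, Etv4, Ier3, Egr1, Errfi1, Areg and Ereg. Of these, Spry1, Egr1, Errfi1, Areg and Ereg were named after their values were seen; Spry1 encodes an inhibitor of receptor tyrosine kinase signalling and Areg and Ereg encode ligands of the EGF receptor. The ratio of Dusp6 to Spry1 averaged 4.26 ± 0.19 in DSS + GAA and 2.96 ± 0.29 in DSS (log2 scale, SD, n = 4 each), and that of Dusp6 to Ereg 1.71 ± 0.65 in DSS + GAA and -0.79 ± 1.33 in DSS. For the other 18 genes the groups overlapped.

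Immediate early genes other than Dusp1 fell in 19 of 24 cases (median log2 fold change -0.83), beside 28.2% of all tested genes. Btg2, an antiproliferative gene, averaged 86.9 ± 12.3 TPM in DSS + GAA and 238.5 ± 82.3 TPM in DSS (-1.39, limma adjusted p = 0.00590). Of the AP-1 subunit genes, Fos was -1.20 ± 0.21 and Fosb -2.02 ± 0.35 (limma adjusted p = 0.00655 and 0.00635; SE). Falls numbered 8, 10 and 7 after trimmed mean scaling, quantile normalization and median centring, 7 with DSS replicate 1 left out and 11 with DSS + GAA replicate 2 or 4 or DSS replicate 2 left out. Of 13 genes that glucocorticoids induce, a class to which Dusp1 also belongs, 12 fell, with a median of -1.50. Mt2, a metallothionein gene, averaged 309 ± 94.2 TPM in DSS + GAA and 2498 ± 1416 TPM in DSS (log2 fold change -2.88, limma adjusted p = 0.00510). Cebpd and Klf9, transcription factor genes, had log2 fold changes of -1.93 ± 0.24 and -1.22 ± 0.14 (SE; limma adjusted p = 0.00460 and 0.00431). Errfi1 is on both this list and the ERK list.

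Of 14 MAP kinase genes, 7 fell, 1 rose and 6 did not pass, with a median log2 fold change of -0.32. Among all tested genes 28.2% were called lower and 5.96% higher, with a median of -0.25. Mapk8, which encodes JNK1, averaged 16.9 ± 2.01 TPM in DSS + GAA and 27.3 ± 2.86 TPM in DSS (-0.66, limma adjusted p = 0.00777). The p38 gene Mapk11 (-1.06 ± 0.22 SE, limma adjusted p = 0.00905) and the atypical kinase gene Mapk4 (-1.21 ± 0.21 SE, 0.00616) fell from low levels, while Mapk3, the gene of ERK1, named after its value was seen, rose (0.36 ± 0.11 SE, limma adjusted p = 0.0329). Falls among the MAP kinases numbered 4 after trimmed mean scaling, 2 after quantile normalization and median centring, and 4 without DSS replicate 1. Mapk3 missed the threshold after quantile normalization and with DSS + GAA replicate 2, 4 or 5 or DSS replicate 1 or 2 left out, where 0 MAP kinases were called higher. Of 28 upstream kinase genes (MAP2K and MAP3K), 10 fell, 1 rose and 17 did not pass (median -0.23). Map3k8, a kinase that links cytokine and Toll-like receptors to ERK, had the smallest p and fell to 8.01 ± 3.12 TPM in DSS + GAA, against 49.5 ± 16.2 TPM in DSS (log2 fold change -2.49 ± 0.28 SE, limma adjusted p = 0.00431). Braf and Map3k6 had log2 fold changes of -0.93 ± 0.14 and -1.18 ± 0.21 (SE; limma adjusted p = 0.00531 and 0.00630). In this list 3 or 4 genes fell and 3 to 7 rose under the other scalings, 5 fell without DSS replicate 1, and 0 rose with DSS + GAA replicate 2 or 4 or DSS replicate 1 or 2 left out.

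Of 16 tested genes of the wider dual-specificity phosphatase family, outside the 10 described here, 4 fell and 12 did not pass (median log2 fold change -0.18). Whether they act on MAP kinases was not a criterion for this list. Beside the lists of this paragraph, 28.2% of all tested genes were called lower, with a median of -0.25. The 3 of these 16 genes with the smallest p were Epm2a, the glycogen phosphatase laforin, at -0.81 ± 0.18, Dusp26 at -1.09 ± 0.27 and Dusp22 at -0.80 ± 0.21 (SE, limma adjusted p = 0.0118, 0.0157 and 0.0205). Falls numbered 1, 0 and 0 after trimmed mean scaling, quantile normalization and median centring, where 1, 2 and 1 genes rose, and 1 with DSS replicate 1 left out. Of 10 genes of serine-threonine and tyrosine phosphatases that also act on MAP kinases, with genes of noncatalytic subunits included, 4 fell and 6 did not pass (median -0.23). Among those that fell were Ppm1d (-0.57 ± 0.13 SE, limma adjusted p = 0.0115), Ppm1a (-0.45 ± 0.12 SE, 0.0181) and the subunit gene Ppp2r1b (-0.42 ± 0.14 SE, 0.0458). Falls numbered 0 under the other scalings, where 1, 1 and 2 genes rose in the same order, 1 with DSS + GAA replicate 2 or DSS replicate 1 left out, and 2 with DSS + GAA replicate 1, 4 or 5 or DSS replicate 2 or 4 left out. Of 16 MAPK-activated kinases and scaffold genes, 4 fell and 12 did not pass (median -0.32), with Rps6ka4 at -0.51 ± 0.11, Mapk8ip1 at -0.91 ± 0.21 and Mapk8ip2 at -1.05 ± 0.25 (SE; limma adjusted p = 0.0108, 0.0129 and 0.0145). Falls in this list numbered 0 under the other scalings, where 1 gene rose after trimmed mean scaling and 1 after median centring. They numbered 7, beside 2 rises, with DSS + GAA replicate 1 left out, and 2 with DSS replicate 1 left out. These lists describe the pathway around the phosphatases and were not tested as sets.

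**Figure D5:**
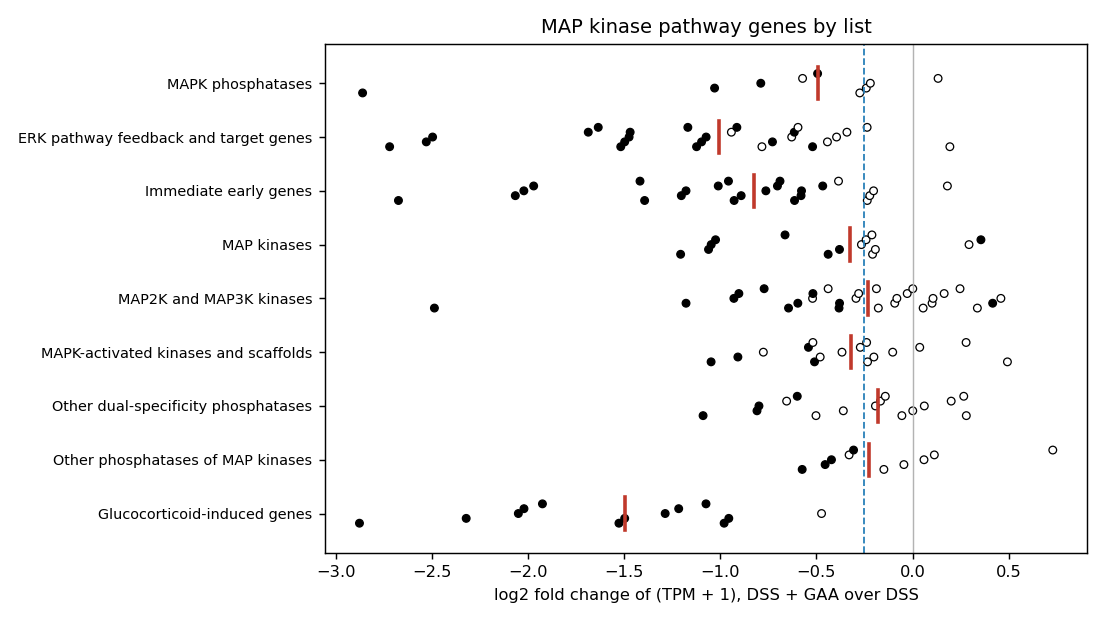
Log2 fold change of (TPM + 1), DSS + GAA over DSS, on TPM as deposited, of every tested gene in each list (circles, filled where the limma adjusted p is under 0.05), with the list's median (red bar) and the median of all tested genes at -0.25 (dashed line). The medians of the ERK feedback (-1.01), immediate early (-0.83) and glucocorticoid-induced (-1.50) lists lie left of that of the phosphatases (-0.49), and after the other scalings 2, 1 and 2 in place of 4 phosphatases remain called.

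For each phosphatase that fell, the 3 tested genes with the most similar course over the 8 libraries were sought, by the root mean square difference of the mean-centred log2(TPM + 1) values. For Dusp1 they were Rgcc (0.16), Slc10a6 (0.24) and Mt2 (0.25). Rgcc was measured at 3.68, 3.66, 1.07 and 1.61 TPM in DSS + GAA replicates 1, 2, 4 and 5, against 25.9, 34.4, 15.4 and 15.2 TPM in DSS replicates 1, 2, 4 and 5, with DSS replicates 1 and 2 above DSS replicates 4 and 5 as for Dusp1. For Dusp2 they were Hdac7 (0.04), Dok3 (0.06) and Gng2 (0.08), for Dusp7 Mnt (0.11), Hs3st5 (0.11) and Ccdc173 (0.11), and for Dusp16 Kdm1a (0.04), Hnrnph1 (0.05) and Senp2 (0.05). Small differences are easier to reach for genes with small changes, so the values are not comparable between the 4 phosphatases.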

How the data were processed

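Messenger RNA of colon tissue was sequenced in 4 DSS + GAA and 4 DSS libraries. Per the labels' protocols, RNA was selected with oligo(dT) beads and read from both ends on an MGI-T7. The authors deposited TPM values per gene and library, with the same total in each library. Beside them the authors deposited, per gene, a log2 fold change. They also deposited the p-value and false discovery rate of a test that the sources used here do not describe. The submitters' processing notes name the mm10 build and, with no roles or versions, SAMtools, GATK, edgeR, featureCounts and Subread, Bowtie2, HISAT2 and Trimmomatic.

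From the deposited TPM, log2(TPM + 1) was fitted with limma 3.58.1 (R 4.3.3, statmod 1.5.0) using robust empirical Bayes with a trended prior variance and no term but group, on the 14217 genes with at least 1 TPM in at least 4 libraries (4045 were left out). Adjusted p-values are Benjamini-Hochberg over all tested genes, two-sided. The fit was tested on simulated data. TPM holds no counts, so no count model, counting interval or detection floor was used. Trimmed mean scaling left out 30% of log ratios at each end (written as 0.3) and 5% of levels (0.05). The phosphatases, the gene lists (8 pathway lists and 11 marker lists) and the tests were chosen with earlier results of these data known. By rule, named genes were all members, per pathway list the 3 genes with the smallest p, and per falling member the 3 nearest patterns. For the neutrophil markers it was the gene with the highest mean TPM. Others are said in the text to be named after their values were seen. Positions are from GENCODE vM21 and sequences from RefSeq (GRCm38.p6). No protein sequences were used here.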

Additional observations from a re-analysis of the deposited data

How the results depend on the processing

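The 4 phosphatase falls became 2 after trimmed mean scaling, 1 after quantile normalization and 2 after median centring. They numbered 2 to 5 when single libraries were left out, and 5 with array quality weights, where 5391 of all tested genes were lower and 1165 higher. No member was called higher in limma under any of these settings. Over all genes, 4006 lower and 847 higher calls became 1648 and 1890 after trimmed mean scaling, 1601 and 1677 after quantile normalization, and 1308 and 2165 after median centring, and ran from 1676 to 4435 lower and from 361 to 1277 higher without single libraries, the fewest of both without DSS replicate 1. Signs turned for members that had not passed. Dusp5 was 0.0196, 0.0463 and 0.062 on the log2 scale after trimmed mean scaling, quantile normalization and median centring, Dusp6 was 0.0518 after trimmed mean scaling and 0.0831 after median centring, and Dusp8 was 0.18 after quantile normalization and 0.0283 after median centring. Without single libraries Dusp5 ran from -0.39 to 0.0029, Dusp6 from -0.51 to 0.0815 and Dusp10 from -0.10 to 0.41. Other pseudocounts and filters, and a fit with no trend and not robust, left the count at 4. With no filter Dusp9 was tested and did not pass (log2 fold change -0.26, limma adjusted p = 0.161). The cause of these shifts was not tested.

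Whether the replicate numbers pair the libraries is not known. Deviations of same-numbered libraries from their group means correlated at 0.18, -0.11, 0.15 and -0.03 across genes for replicates 1, 2, 4 and 5. Such weak correlations cannot settle it. With the replicate number as a block 3 phosphatases fell and 0 rose, beside 3340 lower and 679 higher of 14217 genes. Dusp16 did not pass there at the same log2 fold change of -0.49 (limma adjusted p = 0.0577), and 0 genes rose among the MAP kinases and among the MAP2K and MAP3K genes. With the block, Dusp1 kept its log2 fold change of -2.86, and its SE was 0.18 in place of 0.39 (limma adjusted p = 0.000904). Depth is unknown, so a limit of detection for Dusp9 cannot be given.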
